A study of Mus musculus with 4 samples.

Results

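The heat shock proteins and DnaJ co-chaperones of the mouse cell lines GC-2 and GC-1, known as germ cell lines, are described here. Members were all genes with a non-control probe on the array whose name in the scanner files begins with Hspa, Hspb, Hspd, Hspe, Hsph, Hsp90, Dnaja, Dnajb, Dnajc or Hsf followed by a digit or the letter a. The rule took 78 genes with 166 probes, out of 24813 reference genes with a probe. It used names alone and no measured value, but was chosen with earlier results of these data known. GC-2 is known as a line of mouse spermatocytes immortalised with the large T antigen of SV40 together with a p53 mutant that is temperature-sensitive, and GC-1 as a line of type B spermatogonia immortalised with large T antigen alone. RNA of 2 samples of GC-2 and 2 of GC-1 was hybridised to 4 one-colour Agilent arrays, and no treatment or heat stress is stated for any of them. Per the labels, both lines grew in medium with serum and were lysed in Trizol near confluence. The label was Cy3, after amplification from an oligo-dT primer. Each group is 1 immortalised line, and the lines differ in the transforming genes they carry. Whether the replicates of a line came from separate cultures is not stated, so the p-values cover no more than the spread among these 4 samples, possibly a technical one.

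Heat shock proteins are chaperones that bind unfolded protein, keep it from aggregating and help it fold. HSP70 proteins work in a cycle of ATP hydrolysis: DnaJ proteins, also called HSP40, bring substrates and start hydrolysis through their J domain, and HSP110 proteins act as nucleotide exchange factors that reset the cycle. Heat shock factors are the transcription factors that bind repeated GAA units, the heat shock element, in promoters of the inducible genes. The testis is known for members of its own, among them Hspa2, needed in mouse spermatocytes, and Hspa1l, expressed after meiosis.

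The values given are log2 processed signals relative to the 75th percentile of the 56605 probes of an array, so they compare 1 probe between arrays and not 1 gene with another. That percentile corresponded to a signal of 416 and 199.9 on the GC-2 arrays, against 666 and 693 on the GC-1 arrays, and 57.5% to 64.9% of the probes were well above background. A line's arrays lay in a slide row of their own, so that row and line cannot be told apart. The labelled cell type was checked on 12 germ cell markers. Of these, 2 were measured in GC-2 and 3 in GC-1, Dazl, Mael, Piwil1, Dmc1, Kit and Acrv1 were well above background on no array, and none of the 3 tested passed. The measured ones were Prm1 and Tnp1 in both lines, at signals of 9.32 to 71.8, and Ddx4 in GC-1. In addition, Ddx4 and Sycp3 were well above background on 1 of 2 GC-2 arrays, and Stra8 and Sycp1 on 1 of 2 GC-1 arrays. These markers thus did not bear out the germ cell name for either line. Spike-in RNA added to each sample was 2.07 log2 higher on the GC-2 arrays relative to the 75th percentile. Scaling to it therefore lowers every change by that amount, and directions that flip under it are named with the genes.

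Of the 78 member genes, 71 had a tested probe, meaning one that both arrays of GC-2, both arrays of GC-1 or all 4 measured well above background. In limma's fit over all 36692 tested probes, 12 of the 71 were higher in GC-2 and 12 were lower at an adjusted p under 0.05, and 47 did not pass. Of the 71, 5 passed that filter through 1 line alone, Hspa1a through GC-2 and Dnajc27, Dnajc5b, Dnajc5g and Hsf5 through GC-1, so that their tests serve as descriptions. Called members came to 33.8%, beside 44.1% of all 17437 tested genes. In each direction the members' share was 16.9%, against 18.3% higher and 25.7% lower over all genes. The median log2 change, GC-2 minus GC-1, was -0.06 over the 71 members and -0.13 over all genes. The arrays of the lines did not overlap for 54 members, or 76.1%, beside 77.9% of all genes. Thus neither the count of called members nor that of non-overlapping ones stood above the background. Of the 24 called members 19 differed at least 2-fold, with no such count over all genes beside it. The counts by class, by marker list and by promoter motif below are to be read beside the same shares of all genes. Fewer member falls were counted whichever array was left out, while the member rises changed less. Over all genes both rises and falls became fewer as well, so the drop in falls is not particular to the members. Fewer member falls were also counted with all 4 arrays but no filter on dim probes, with no count of all genes beside them. The number of member falls thus depended on the processing as well. Centring each array on its median gave 11 rises and 21 falls, with no share of all genes beside them. Scaling to the spike-ins gave 5 rises and 59 falls. Under that scaling 3.69% of all genes were higher and most of all 17437 were lower. Neither pair of counts is a result about the members alone.

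**Figure D1:**
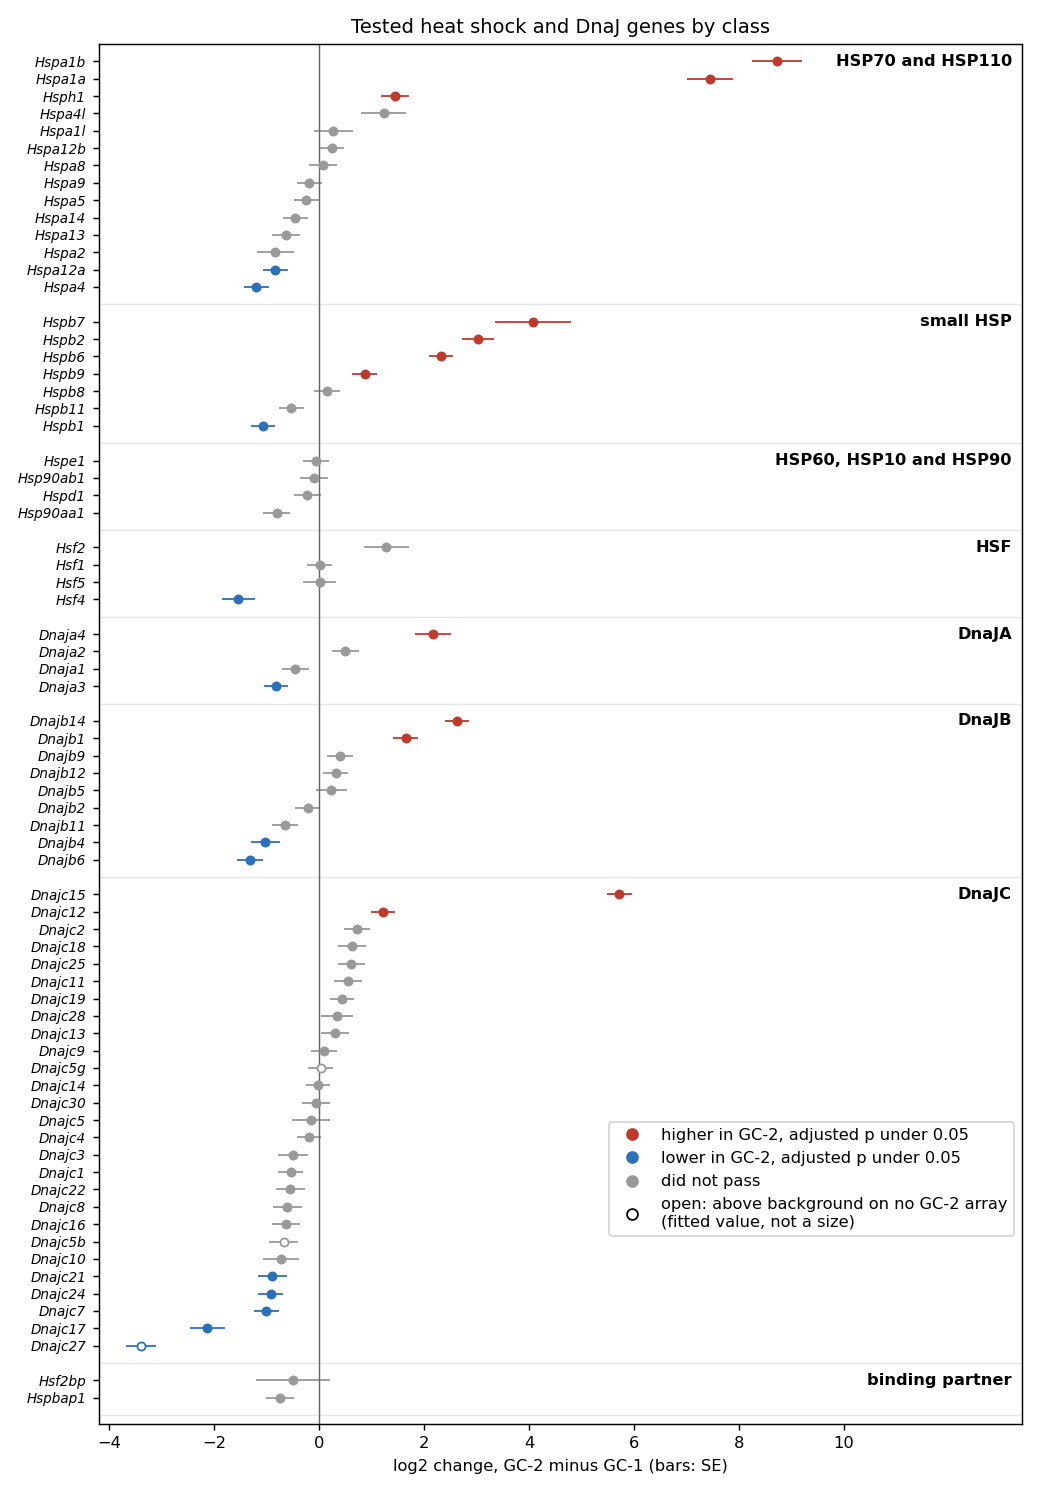
Log2 change, GC-2 minus GC-1, of the 71 tested member genes (points) with the standard error (bars), ordered within each class; red genes were higher in GC-2, blue genes lower, grey genes did not pass, and the 3 open points (Dnajc27, Dnajc5b and Dnajc5g) were well above background on no GC-2 array, so their fitted values are no sizes. Hspa1b and Hspa1a lie farthest right at 8.73 and 7.45, Dnajc15 follows at 5.72, and most of the DnaJC genes are grey.

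The stress-inducible HSP70 genes Hspa1b and Hspa1a had the 2 largest fitted changes of the members, although the GC-1 level of Hspa1a lay partly below background. They encode nearly the same cytosolic HSP70, are the textbook targets of heat shock factor 1, and are neighbouring protein-coding genes on chromosome 17, followed by Hspa1l. Hspa1b read 5.69 and 5.79 in GC-2, against -2.28 and -3.69 in GC-1 (probe chr17:35093374-35093405, mm9). Its processed signal was 21415 and 11070 on the GC-2 arrays, against 137 and 53.7 on the GC-1 arrays. All 4 values were well above background, and the lower GC-2 array exceeded the higher GC-1 array by far more than replicates differed. The rise was 8.73 ± 0.48 log2 (SE, n = 2 arrays per line), or 423-fold, with an adjusted p of 0.000268. Hspa1a read 1.82 and 1.30 in GC-2, against -5.32 and -6.46 in GC-1, where only 1 of 2 arrays was well above background (probe chr17:35106766-35106825, mm9). Its fitted change was 7.45 ± 0.44 log2 (adjusted p = 0.000311), and it entered the test through its GC-2 arrays alone. With normexp background correction Hspa1a came to 4.67 log2, below the 5.04 of Dnajc15, so the order of these 2 genes depends on the processing. Hspa1b was called higher under all 13 alternatives and Hspa1a under 12, being left untested where all 4 arrays had to be well above background. Spike-in scaling gave 6.66 for Hspa1b and 5.38 for Hspa1a. Each gene has 1 tested probe, so the mean of a gene's probes, 1 of the alternatives, repeats the main change. Whether either probe also binds the other gene's RNA was not tested.

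The promoter windows of this pair are shown because both genes moved together and because the heat shock element letters can be read in them. Windows of 300 bases, 250 before and 50 after the gene's start, were taken from RefSeq on GRCm38.p6. Both lie on the minus strand, Hspa1a at chr17:34972107-34972406 and Hspa1b at chr17:34959189-34959488. Capitals mark the 2-unit form of the heat shock element, GAANNTTC or TTCNNGAA.
Hspa1a: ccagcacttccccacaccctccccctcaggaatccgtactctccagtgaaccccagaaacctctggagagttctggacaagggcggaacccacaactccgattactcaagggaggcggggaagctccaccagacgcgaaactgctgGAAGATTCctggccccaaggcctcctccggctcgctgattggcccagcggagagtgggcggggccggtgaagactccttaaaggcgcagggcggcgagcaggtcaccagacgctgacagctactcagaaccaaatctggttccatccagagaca
Hspa1b: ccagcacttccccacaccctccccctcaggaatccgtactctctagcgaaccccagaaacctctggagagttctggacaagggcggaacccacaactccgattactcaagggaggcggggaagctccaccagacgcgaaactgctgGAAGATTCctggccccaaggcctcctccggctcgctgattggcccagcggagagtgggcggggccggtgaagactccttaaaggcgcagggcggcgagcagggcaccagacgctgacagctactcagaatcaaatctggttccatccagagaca
The windows had 296 of 300 bases in common (98.7%). Counted from 1 at the 5′ end, with the Hspa1a base first, the differences were C44T, T47C, T249G and C276T, none of them within the capitals. The 2-unit motif sat at bases 147 to 154 of both windows, starting 104 bases before the gene's start.

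Hspa1l, the remaining gene of the cluster, stayed near the detection limit in both lines. It read -3.69 and -4.63 in GC-2, against -4.58 and -4.27 in GC-1 (probe chr17:35115629-35115688, mm9). The lines overlapped, and the difference was 0.27 ± 0.37 log2 (adjusted p = 0.587; -1.80 when scaled to the spike-ins). With normexp it passed as higher in GC-2, at 0.91 log2 (adjusted p = 0.0455). Hspa2, the meiotic HSP70 gene, read 0.16 and 0.00 in GC-2, against 1.37 and 0.46 in GC-1 (probe chr12:77507769-77507828, mm9). Its arrays did not overlap, but the difference of -0.83 ± 0.36 log2 did not pass (adjusted p = 0.109). Without GC-1 replicate 2 the fit gave -1.29 and passed (adjusted p = 0.0402). Both of these testis genes were well above background on all 4 arrays, and the call of each thus depends on the processing or on 1 array.

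Among the other HSP70 and HSP110 genes, 1 HSP110 gene rose, another fell, and the housekeeping HSP70 genes did not pass. In this class of 14 genes, all tested, 3 rose, 2 fell and 9 did not pass, with changes of -0.83 to 1.23 log2. Hsph1, which encodes HSP105, read 5.08 and 5.52 in GC-2, against 3.92 and 3.80 in GC-1. It rose by 1.44 ± 0.26 log2 (adjusted p = 0.00866) and all 3 of its tested probes were higher. Scaled to the spike-ins, however, its change was -0.63. Hspa4, another HSP110 gene, read 5.80 and 6.08 in GC-2, against 7.18 and 7.10 in GC-1, and fell by 1.20 ± 0.24 log2 (adjusted p = 0.0118), with 3 of 4 tested probes lower. The 2 related genes thus moved in opposite directions, both without overlap between the lines. Their relative Hspa4l, whose loss lowers male fertility in mice, read 4.80 and 4.44 in GC-2, against 3.96 and 2.82 in GC-1, a difference of 1.23 ± 0.43 log2 (adjusted p = 0.0626; -0.84 when scaled to the spike-ins). Its GC-1 arrays differed by more than a log2 unit on that probe, and 2 of its other 3 tested probes were higher in GC-2, by 1.70 and 1.80 log2. Leaving out 1 array ended the Hsph1 call without GC-1 replicate 2 (adjusted p = 0.0505) and the Hspa4 call without GC-2 replicate 1 (0.0523) or GC-1 replicate 1 (0.0609). Without GC-1 replicate 1, Hspa4l passed, at 1.80 log2 (adjusted p = 0.0296). It also passed with quantile normalization (0.0351), the filter for all 4 arrays (0.0423), the authors' deposited table (0.0401), the replicate block (0.0202) and the mean of its probes (0.0156).

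Hspa8, the constitutive cytosolic HSP70, read 7.08 and 7.51 in GC-2, against 7.27 and 7.17 in GC-1, and differed by 0.07 ± 0.26 log2 (adjusted p = 0.845; -1.997 when scaled to the spike-ins). The endoplasmic reticulum HSP70 Hspa5, known as BiP, read 7.07 and 6.90 in GC-2, against 7.35 and 7.11 in GC-1, a difference of -0.25 ± 0.24 log2. For Hspa9, the mitochondrial HSP70 mortalin, the values were 5.42 and 5.27 in GC-2, against 5.42 and 5.65 in GC-1, and the difference was -0.19 ± 0.24 log2. These differences, on the probe with the highest mean, were no larger than about 1 standard error (adjusted p = 0.443 for Hspa5 and 0.547 for Hspa9). Other probes read differently without passing. They gave 0.43 and 0.29 log2 for Hspa5 and 0.74 ± 0.25 for Hspa9 (adjusted p = 0.0562). The dimmest Hspa8 probe gave -0.91 ± 0.35 (adjusted p = 0.0811). Hspa14, a ribosome-associated HSP70, differed by -0.45 ± 0.24 log2 (adjusted p = 0.173), while 2 of its dimmer probes were called higher in GC-2, one by 1.70 log2 and the other with 1 of 2 GC-1 arrays well above background. Hspa13, an HSP70 of the microsomes, differed by -0.63 ± 0.26 log2 (adjusted p = 0.104) and passed as lower with median centring (-0.95, adjusted p = 0.0463). The distant relative Hspa12a read 3.77 and 3.58 in GC-2, against 4.46 and 4.57 in GC-1, and fell by 0.84 ± 0.23 log2 (adjusted p = 0.0334), with a second probe at 0.51 that did not pass. That call was lost whichever array was left out (adjusted p = 0.0718 to 0.132), and also with quantile normalization (-0.54, 0.0992), without a filter on dim probes (0.0983), with the mean of its probes (-0.16, 0.582) and in the authors' deposited table (-0.21, 0.527). Its paralog Hspa12b differed by 0.24 ± 0.24 log2 (adjusted p = 0.445; -1.83 when scaled to the spike-ins).

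**Figure D2:**
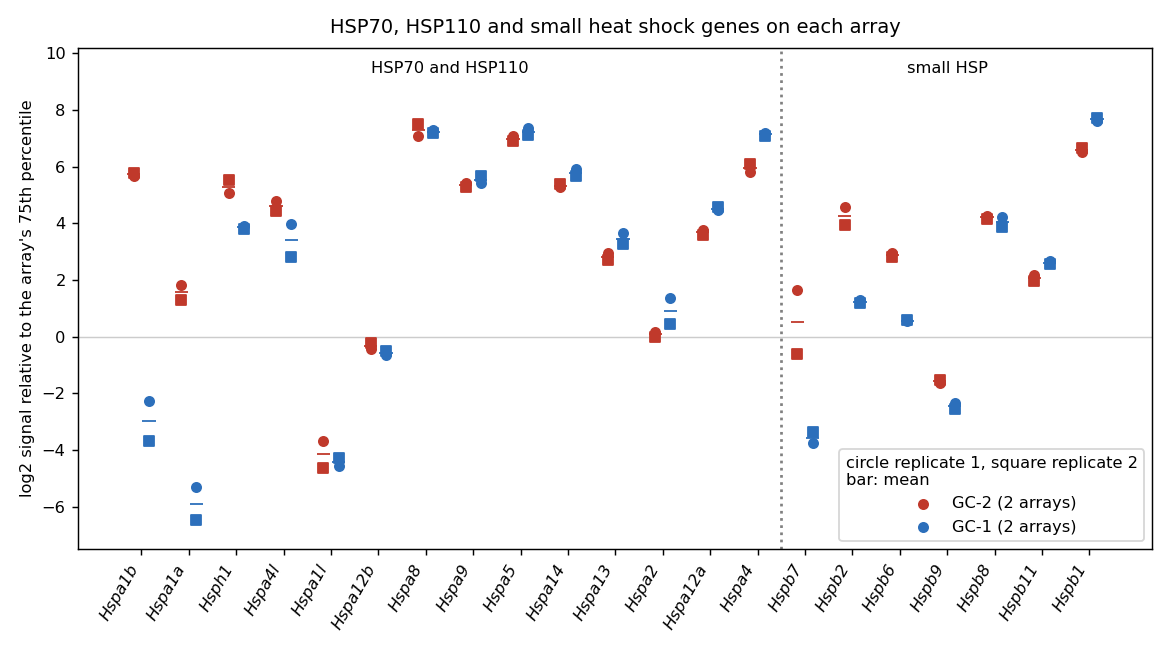
Log2 signal relative to the array's 75th percentile on each array for the tested HSP70, HSP110 and small heat shock genes, GC-2 in red left of GC-1 in blue, circles for replicate 1, squares for replicate 2 and bars for the mean of 2 arrays. The gap between the lines is widest for Hspa1b and Hspa1a, Hspa1l overlaps near -4, and Hspb7 is the small heat shock gene whose GC-2 arrays lie farthest apart, at 1.63 and -0.61.

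The small heat shock proteins are chaperones without ATPase activity that hold unfolding protein, and several are best known from heart and skeletal muscle. Of 8 member genes, 7 were tested, 4 rose, 1 fell and 2 did not pass (-0.53 and 0.16 log2), and the median change was 0.87. The shares were 57.1% higher and 14.3% lower, on 7 genes, beside 18.3% and 25.7% of all genes. Hspb2, expressed in heart and muscle, read 4.59 and 3.92 in GC-2, against 1.30 and 1.17 in GC-1. It rose by 3.02 ± 0.30 log2, or 8.1-fold (adjusted p = 0.00137; probe chr9:50559211-50559270, mm9), and kept a rise of 0.95 when scaled to the spike-ins. Hspb2 has 1 probe on the array. Hspb6, also called HSP20 and known from muscle, read 2.96 and 2.80 in GC-2, against 0.56 and 0.57 in GC-1, and rose by 2.32 ± 0.23 log2 (adjusted p = 0.00131). The replicates of that gene lay close together and its second probe was higher by 3.83 log2, but with spike-in scaling its change was 0.25 and did not pass (adjusted p = 0.533). Hspb7, the cardiovascular small heat shock gene, read 1.63 and -0.61 in GC-2, against -3.75 and -3.37 in GC-1, and rose by 4.07 ± 0.72 log2 (adjusted p = 0.00776). Although its GC-2 arrays were 2.24 log2 apart, both lay above both GC-1 arrays. Its second probe was well above background on neither GC-1 array and at least 7.46-fold higher in GC-2, a bound against the lowest signal well above background. Hspb9, a testis-expressed member, read -1.62 and -1.54 in GC-2, against -2.33 and -2.57 in GC-1, and rose by 0.87 ± 0.24 log2 (adjusted p = 0.0309), a direction that flipped to -1.20 under spike-in scaling. The Hspb7 call was lost without GC-1 replicate 1 (adjusted p = 0.0671) or GC-1 replicate 2 (0.0520) and in the authors' deposited table (2.20, 0.107). That of Hspb9 was lost without any one of the arrays (0.0687 to 0.112), with median centring (0.55, 0.134), with quantile normalization (0.68, 0.0556) and without a filter on dim probes (0.0909).

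Hspb1, called HSP25 in mouse and the most widely expressed small heat shock protein, went the other way. It read 6.52 and 6.67 in GC-2, against 7.60 and 7.73 in GC-1, and fell by 1.07 ± 0.23 log2 (adjusted p = 0.0148; probe chr5:136365366-136365425, mm9), a call lost without GC-2 replicate 1 (0.0609), GC-1 replicate 1 (0.0545) or GC-1 replicate 2 (0.0641). Hspb8, the partner of the co-chaperone Bag3, read 4.25 and 4.17 in GC-2, against 4.22 and 3.88 in GC-1, and differed by 0.16 ± 0.25 log2 (adjusted p = 0.637; -1.91 when scaled to the spike-ins). The crystallin gene Cryab, which lies outside the naming rule of the members and was singled out after its values were seen because it is the neighbouring protein-coding gene of Hspb2, read 6.33 and 6.21 in GC-2, against 6.95 and 6.22 in GC-1. It differed by -0.32 ± 0.32 log2 (adjusted p = 0.444), so of this pair of neighbours Hspb2 passed and Cryab did not, and the difference between them was not tested. Hspb3 was well above background on no array, and Hspb11, which serves intraflagellar transport despite its name, did not pass.

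Because Hspb2, Hspb6 and Hspb7 are known from muscle, a list of 5 smooth muscle and peritubular myoid markers was read beside them. The actin genes Acta2 and Actg2 were higher in GC-2 by 1.80 and 2.41 log2, whereas Cnn1, Des and Myh11 did not pass and Des was well above background on 1 of 2 GC-2 arrays. The summed linear level of the list, relative to the 75th percentile, was 32.7 and 42.2 in GC-2, against 11.3 and 10.9 in GC-1. That sum adds different probes and is mostly Acta2, so it does not describe the list as a whole. Cnn1 and Des had changes of -0.53 and -1.07 log2, and Myh11 of 0.57. Any part of these markers in the small heat shock genes' rise was not tested. Of the other marker lists, 3 of 8 Sertoli genes were higher in GC-2 and 3 lower, 3 of 6 Leydig genes higher and 1 lower, 1 of 5 macrophage genes higher and 1 lower, 0 of 5 epithelial genes higher and 3 lower, and of 4 endothelial genes none passed among the 2 tested.

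The mitochondrial chaperonin pair and the cytosolic HSP90 genes, abundant in nearly every cell, did not pass, although each of the 4 was called lower with spike-in scaling and both HSP90 genes under further settings. Hspd1, the mitochondrial HSP60, read 6.20 and 6.51 in GC-2, against 6.44 and 6.73 in GC-1, and Hspe1, its HSP10 partner, read 6.37 and 6.64 in GC-2, against 6.53 and 6.60 in GC-1. Their differences were -0.23 ± 0.26 and -0.06 ± 0.24 log2 (adjusted p = 0.504 and 0.859), and the lines overlapped for both. Hsp90ab1, the constitutive HSP90, read 7.97 and 8.40 in GC-2, against 8.41 and 8.17 in GC-1, a difference of -0.11 ± 0.27 log2 (adjusted p = 0.773), and passed as lower with quantile normalization (-0.75, adjusted p = 0.0352). Hsp90aa1, the inducible HSP90, read 5.54 and 5.88 in GC-2, against 6.38 and 6.66 in GC-1. Its difference of -0.81 ± 0.26 log2 fell just short of the threshold (adjusted p = 0.0504), and its second probe was lower in GC-2 by 1.07 ± 0.27 log2 (adjusted p = 0.0243). Hsp90aa1 passed as lower with median centring (0.0131), normexp (0.0305), the filter for all 4 arrays (0.0355), the authors' deposited table (0.0320), the replicate block (0.0465) and the mean of its probes (0.0262).

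Of the 5 heat shock factor genes, 4 were tested, none rose and 1 fell. Hsf1, the factor that drives the heat response, read 3.55 and 3.71 in GC-2, against 3.52 and 3.71 in GC-1, a difference of 0.01 ± 0.24 log2 (adjusted p = 0.967; -2.05 when scaled to the spike-ins). Arrays measure its RNA, while the factor is known to be controlled mainly after translation. Hsf2, which acts in spermatogenesis, read 1.50 and 1.40 in GC-2, against 0.78 and -0.45 in GC-1, a difference of 1.28 ± 0.43 log2 that did not pass (adjusted p = 0.0589; -0.79 when scaled to the spike-ins). The GC-1 arrays of Hsf2 lay 1.23 log2 apart, and without GC-1 replicate 1 it passed, at 1.89 log2 (adjusted p = 0.0214), as it did with normexp (0.0422), the filter for all 4 arrays (0.0393) and the replicate block (0.0273). Hsf4, known from the lens, read -2.94 and -3.36 in GC-2, against -1.93 and -1.29 in GC-1, and fell by 1.54 ± 0.32 log2 (adjusted p = 0.0132), with 2 of 2 probes lower. Its call was lost without GC-2 replicate 2 (adjusted p = 0.0600) or GC-1 replicate 2 (0.0623) and with normexp, which gave -0.45 log2 (0.280). Hsf3 was well above background on no array.

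DnaJA and DnaJB proteins are the co-chaperones closest in build to bacterial DnaJ. Of 4 DnaJA genes 1 rose and 1 fell, and of 13 DnaJB genes, 9 of them tested, 2 rose, 2 fell and 5 did not pass (-0.66 to 0.40 log2). Dnajb1, the inducible HSP40 that works with Hspa1a and Hspa1b proteins, read 7.14 and 7.34 in GC-2, against 5.61 and 5.58 in GC-1. It rose by 1.65 ± 0.23 log2, or 3.13-fold (adjusted p = 0.00382; probe chr8:86135660-86135719, mm9), and was -0.42 when scaled to the spike-ins. Dnaja4, a cytosolic DnaJ of the sterol-regulated set, read 2.26 and 1.95 in GC-2, against 0.36 and -0.48 in GC-1, and rose by 2.17 ± 0.35 log2 (adjusted p = 0.00576). The second Dnaja4 probe was well above background in GC-2 alone, at least 5.22-fold higher there than in GC-1. In the authors' deposited table Dnaja4 had the other sign, at -0.77 (adjusted p = 0.152), and with spike-in scaling its change was 0.10 and did not pass (0.824). Dnajb14, a DnaJ of the endoplasmic reticulum membrane, read 0.76 and 0.87 in GC-2, against -1.92 and -1.70 in GC-1, and rose by 2.63 ± 0.24 log2 (adjusted p = 0.000983), but its other probe differed by -0.36 ± 0.31 log2 and did not pass (adjusted p = 0.382). With spike-in scaling Dnajb14 came to 0.56 and did not pass (0.159). So Dnajb1 has 1 tested probe and the probes of Dnajb14 disagreed.

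Dnajb6, known for suppressing aggregation of polyglutamine proteins, read 3.96 and 3.80 in GC-2, against 5.35 and 5.05 in GC-1. It fell by 1.32 ± 0.25 log2 (adjusted p = 0.00914), and 4 of 5 tested probes were lower. Dnajb4, another inducible DnaJ, read 2.19 and 2.21 in GC-2, against 2.98 and 3.48 in GC-1, and fell by 1.02 ± 0.27 log2 (adjusted p = 0.0281), with 2 of 5 tested probes lower. Dnaja3, the mitochondrial Tid1, read 3.97 and 4.01 in GC-2, against 4.89 and 4.73 in GC-1, and fell by 0.82 ± 0.23 log2 (adjusted p = 0.0337). These 3 genes thus fell while Dnajb1 rose on the same arrays. The call was lost for Dnaja3 whichever array was left out (adjusted p = 0.0754 to 0.119), for Dnajb4 without GC-2 replicate 1 (0.0859), GC-2 replicate 2 (0.0900) or GC-1 replicate 2 (0.102), and for Dnajb6 without GC-1 replicate 1 (0.0517). Quantile normalization ended the calls of Dnaja3 (-0.53, 0.0882) and Dnajb4 (-0.80, 0.0645), and so did testing without a filter on dim probes (0.101 and 0.0727). The authors' deposited table ended that of Dnaja3 (-0.44, 0.895) and the mean of its probes that of Dnajb4 (0.0520). Dnaja1, a major cytosolic partner of HSP70, read 6.55 and 6.92 in GC-2, against 7.27 and 7.10 in GC-1, and its difference of -0.45 ± 0.26 log2 did not pass (adjusted p = 0.199), though with quantile normalization it did, as lower (-0.71, 0.0472). Of the DnaJB genes known from the testis, Dnajb3 and Dnajb13, an axonemal protein, were well above background on no array, and Dnajb8 was so on 1 GC-1 array and no GC-2 array.

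DnaJC proteins share the J domain alone and serve many compartments, and most of them did not pass. Of 28 genes 27 were tested, 2 rose, 5 fell and 20 did not pass, with changes of -0.73 to 0.72 log2. Dnajc15, also called MCJ, is a protein of the mitochondrial inner membrane known for restraining respiratory complex I. It read 3.32 and 3.41 in GC-2, against -2.24 and -2.48 in GC-1, and rose by 5.72 ± 0.24 log2, or 52.8-fold (adjusted p = 0.000162; probe chr14:78226095-78226154, mm9). Replicates of Dnajc15 lay within 0.24 log2 of each other, and its rise was called under all 13 alternatives, 3.65 log2 with spike-in scaling. Dnajc15 has 1 probe on the array, so the mean of a gene's probes repeats the main change. Dnajc12, a co-chaperone of aromatic amino acid hydroxylases, read 0.53 and 0.38 in GC-2, against -0.72 and -0.79 in GC-1. It rose by 1.21 ± 0.23 log2 (adjusted p = 0.00957), which flipped to -0.85 under spike-in scaling.

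Dnajc27, a Rab-like GTPase with a J domain, was well above background on neither GC-2 array, against both GC-1 arrays. This put its signal at least 2.47-fold higher in GC-1 (adjusted p = 0.000813, for a gene that entered the test through GC-1 alone), from measured means of -7.23 in GC-2 and -3.83 in GC-1, where at least means that the GC-2 value was set at the lowest signal well above background. With normexp background correction its change was 0.35 log2 and did not pass (adjusted p = 0.445), so both the call and the direction of Dnajc27 depend on the background correction. Dnajc17, associated with the spliceosome, read -1.09 and -1.13 in GC-2, against 0.63 and 1.42 in GC-1. It fell by 2.13 ± 0.33 log2 (adjusted p = 0.00502), the one fall called under all 13 alternatives. Dnajc17 has 1 probe on the array, so the mean of a gene's probes repeats the main change. Dnajc7, a tetratricopeptide co-chaperone of HSP70 and HSP90, read 3.95 and 4.15 in GC-2, against 5.12 and 4.99 in GC-1, and fell by 1.00 ± 0.24 log2 (adjusted p = 0.0194). Dnajc24, which acts in diphthamide synthesis, read 2.43 and 2.52 in GC-2, against 3.49 and 3.31 in GC-1, and fell by 0.92 ± 0.23 log2 (adjusted p = 0.0241). Leaving out any one of the arrays ended the calls of Dnajc7 (adjusted p = 0.0520 to 0.0830) and Dnajc24 (0.0609 to 0.0961), and testing without a filter on dim probes ended them too (0.0605 and 0.0746). Dnajc5b, a testis relative of the cysteine string protein, was well above background on neither GC-2 array, against both in GC-1. This gave a bound of at least 1.14-fold higher in GC-1. Its fitted change of -0.68 log2, which is no size, did not pass (adjusted p = 0.0930). It passed with median centring (0.0223) and quantile normalization (0.0189). Over all settings but the spike-in scaling, however, its change ran from -0.99 to 0.75 log2, so the direction of Dnajc5b depends on the processing.

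The array carries several tested probes for 41 member genes, and they did not always read alike. Of the 143 tested member probes 54 were called, or 37.8%, beside 45.7% of all 36692 tested probes. Dnajc21, a ribosome biogenesis factor singled out after its values were seen, was the 1 member whose probes were called in opposite directions, beside 8.43% of the 7805 genes with several tested probes. Its probe with the highest mean was lower in GC-2 by 0.89 log2 (adjusted p = 0.0443) and another by 0.72 log2, whereas the remaining one was higher by 1.73 log2. The first of these calls was lost without any one of the arrays (adjusted p = 0.0640 to 0.169), with quantile normalization (0.0866) and without a filter on dim probes (0.107), and the sign turned in the authors' deposited table (0.74) and with the mean of its probes (0.038). In 11 further genes a probe was called although the one with the highest mean did not pass, among them Hspa4l, Hspa14 and Hsp90aa1. That count has none of all genes beside it, so it is no result about the members. Some of these probes entered the test through 1 line alone, among them that of Hsf5 through GC-1. Which transcripts these probes detect was not tested.

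**Figure D3:**
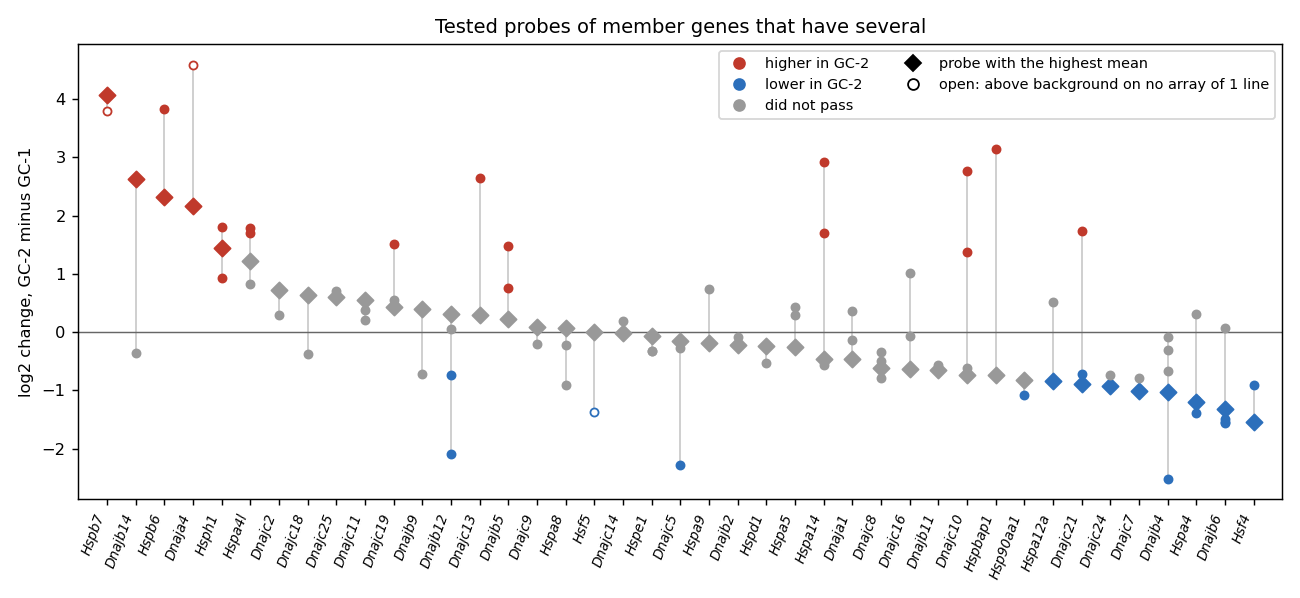
Log2 change, GC-2 minus GC-1, of each tested probe of the 41 member genes with several, diamonds for the probe with the highest mean and circles for the others, coloured by the call; open marks were well above background on no array of 1 line, and their fitted values are no sizes. For Hsph1 and Hsf4 all probes lie on the same side and were called, while Dnajc21 has called probes on both sides of 0.

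Promoter letters were read for the other members as well. Of the 78 members 62 had RefSeq windows. The 2-unit motif occurred in a window of 27.4% of these genes, beside 17.0% of all 27025 genes with a window. The 3-unit motif, GAANNTTCNNGAA or TTCNNGAANNTTC, contains the 2-unit form and occurred in 6.45%, namely Hsph1, Hspd1, Hspe1 and Dnajb6, beside 0.662% of all genes. The spellings searched cover both strands. The windows of Hsph1, which rose, Hspb1, which fell, and Hspe1, which did not pass, are given to show that called and uncalled genes carry these letters. They lie at chr5:149636266-149636565 on the minus strand for Hsph1, chr5:135887669-135887968 on the plus strand for Hspb1 and chr1:55087898-55088197 on the plus strand for Hspe1, on GRCm38.p6, and capitals mark all 2-unit and 3-unit matches.
Hsph1: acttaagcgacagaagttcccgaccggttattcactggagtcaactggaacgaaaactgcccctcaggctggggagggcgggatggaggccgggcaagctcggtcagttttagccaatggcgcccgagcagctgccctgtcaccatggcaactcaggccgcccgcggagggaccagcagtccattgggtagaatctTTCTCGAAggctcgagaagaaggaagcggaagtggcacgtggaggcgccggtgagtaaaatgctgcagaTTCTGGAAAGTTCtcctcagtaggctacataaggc
Hspb1: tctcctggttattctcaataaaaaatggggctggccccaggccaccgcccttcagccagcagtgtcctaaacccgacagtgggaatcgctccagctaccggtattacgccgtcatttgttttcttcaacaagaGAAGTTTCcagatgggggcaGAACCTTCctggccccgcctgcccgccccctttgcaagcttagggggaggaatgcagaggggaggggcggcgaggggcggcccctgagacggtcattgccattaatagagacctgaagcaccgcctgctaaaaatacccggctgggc
Hspe1: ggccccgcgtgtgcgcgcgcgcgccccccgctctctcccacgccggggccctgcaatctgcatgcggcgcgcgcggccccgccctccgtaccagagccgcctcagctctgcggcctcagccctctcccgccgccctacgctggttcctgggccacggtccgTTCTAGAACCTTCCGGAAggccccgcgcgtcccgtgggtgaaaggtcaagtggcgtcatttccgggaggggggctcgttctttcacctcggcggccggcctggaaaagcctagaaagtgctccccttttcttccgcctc
In Hspb1 the pair of 2-unit motifs start 117 and 97 bases before the gene's start. In Hspe1 overlapping 3-unit motifs start 89 and 84 bases before the start, and the same letters fall in the window of Hspd1, the divergent neighbouring gene. In Hsph1 the 3-unit motif begins 15 bases after the start used for this window and a 2-unit motif 54 bases before it.

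Both rises and falls were found in each motif group and among the genes without a motif. Of the 4 tested genes with the 3-unit motif, 1 rose and 1 fell, with a median change of -0.14 log2. Of 12 tested genes with only the 2-unit motif, 4 rose (Hspa1b, Hspa1a, Hspb6 and Dnaja4) and 3 fell (Hspb1, Dnajb4 and Dnajc27), with a median of 0.02. Of 39 tested genes with neither, 5 rose and 7 fell, with a median of -0.20, and Dnajb1 and Dnajc15 are among those that rose. Over all tested genes 18.3% were higher and 25.7% lower. Hspa1a entered the test through GC-2 alone and Dnajc27 through GC-1 alone. The groups are small, and a difference between them was not tested. A match describes letters in a window, not a site in use, and an absence says only that these letters are not in that window.

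**Figure D4:**
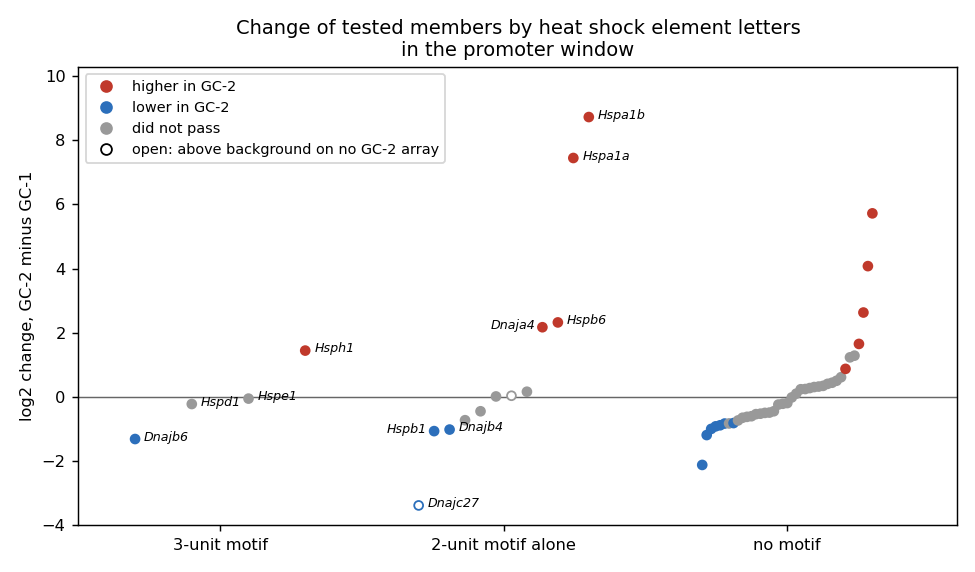
Log2 change, GC-2 minus GC-1, of the tested members with a RefSeq promoter window, grouped by the heat shock element letters found in it and ordered by change within each group, with open points for genes well above background on no GC-2 array. Hspa1b and Hspa1a stand at the top of the 2-unit group, in which Hspb1, Dnajb4 and Dnajc27 lie below 0.

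Partner genes of the chaperone cycle, from 5 lists with 63 reported genes outside the naming rule, gave 7 rises and 8 falls with a median change of -0.17 log2. Called partners came to 23.8%, 11.1% higher and 12.7% lower, beside 44.1% of all genes, 18.3% higher and 25.7% lower, so their share lay below the background. Leaving out GC-2 replicate 1 gave 5 rises and 6 falls, GC-2 replicate 2 gave 1 and 3, GC-1 replicate 1 gave 1 and 2, and GC-1 replicate 2 gave 3 and 6. Among the 14 HSP90 partners reported, the immunophilin gene Fkbp5 fell by 1.88 ± 0.24 log2 and Sugt1 fell by 0.99 ± 0.24, and the other 12 did not pass. The HSP70-HSP90 linker Stip1 differed by 0.63 ± 0.24 log2 (adjusted p = 0.0838; -1.44 when scaled to the spike-ins), passing as higher with quantile normalization (0.0251), the authors' deposited table (0.0308) and the mean of its probes (0.0146), and Hsp90b1, the endoplasmic reticulum HSP90, by -0.05 ± 0.24 (adjusted p = 0.875). Of 12 HSP70 exchange factors and co-chaperones, 3 rose, namely Hyou1 by 1.44 ± 0.25, Bag2 by 1.30 ± 0.26 and Hspbp1 by 0.96 ± 0.27 log2. In this list Sil1, the exchange factor of BiP, fell by 1.26 ± 0.30. St13, which the rule for naming partners did not select, was also lower. Its call was not followed under the alternatives. Bag3, a heat-inducible partner of Hspb8, read 4.56 and 4.56 in GC-2, against 4.82 and 4.76 in GC-1, and differed by -0.23 ± 0.22 log2 (adjusted p = 0.438).

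Of 14 chaperonin and prefoldin subunits, 2 rose, Cct3 by 1.19 ± 0.27 and Cct7 by 0.86 ± 0.24 log2, and none fell. Of 14 genes of folding in the endoplasmic reticulum, the lectin chaperone Calr rose by 1.15 ± 0.25 log2, the oxidase gene Ero1a fell by 1.71 ± 0.37 and the stress transcription factor gene Xbp1 fell by 1.48 ± 0.28. Of 9 other stress-inducible genes, the metallothionein Mt1 rose by 1.17 ± 0.31 log2, while Srxn1, an antioxidant reductase, fell by 1.71 ± 0.30 and the collagen chaperone Serpinh1 fell by 1.07 ± 0.25. Serpinh1 had the other sign in the authors' deposited table (0.43) and with the mean of its probes (0.47), without passing. The authors' deposited table also ended the calls of Fkbp5 (0.0798), Sil1 (0.0992), Sugt1 (0.0683), Xbp1 (0.152) and Mt1 (0.087), and the mean of probes those of Sil1 (0.0642), Sugt1 (0.0514), Xbp1 (0.0939) and Mt1 (0.0687). Median centring and normexp ended those of Cct7 (0.117 and 0.106) and Hspbp1 (0.0808 and 0.0566), and testing without a filter on dim probes those of Cct7 (0.0960), Hspbp1 (0.0830), Mt1 (0.0640), Serpinh1 (0.0570) and Sugt1 (0.0647). The adjusted p of the named calls lay between 0.00266 and 0.0339, and only those of Hyou1, Fkbp5 and Srxn1 outlasted each array left out in turn. Each partner that rose was below 0 when scaled to the spike-ins.

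**Figure D5:**
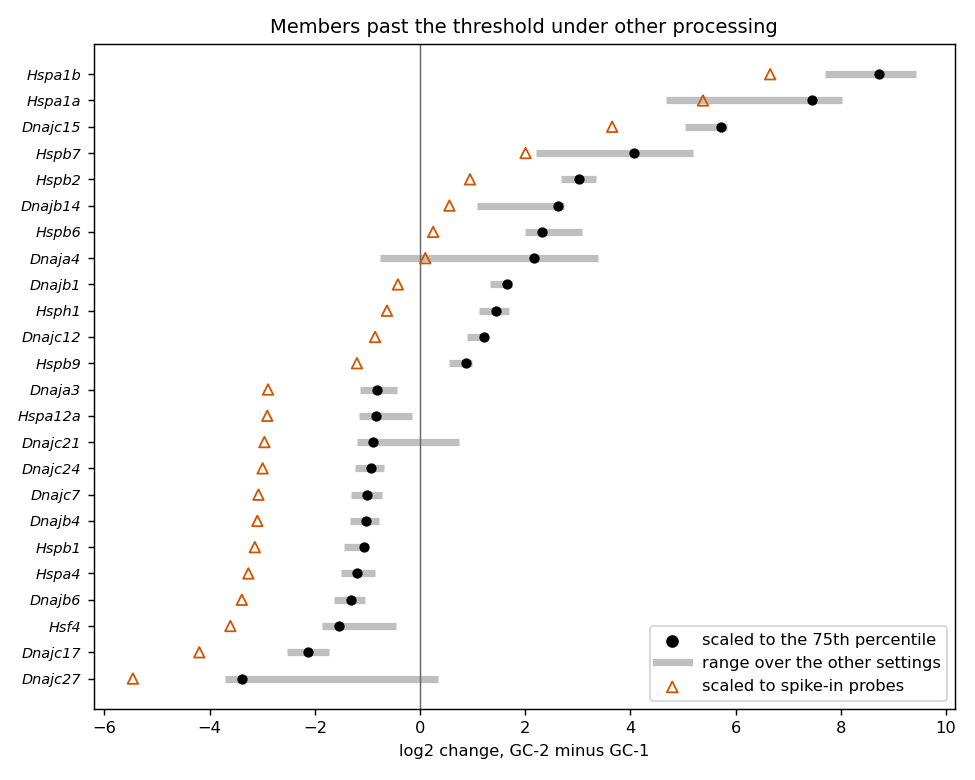
Log2 change, GC-2 minus GC-1, of the 24 called members when scaled to the 75th percentile (black points), its range over that and the other settings (grey bars) and when scaled to spike-in probes (open triangles). Hspa1b, Hspa1a, Dnajc15, Hspb7 and Hspb2 stay well to the right under each, and the triangles of Dnajb1, Hsph1, Dnajc12 and Hspb9 lie left of 0.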

How the data were processed

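RNA of GC-2 and GC-1 (2 samples each, groups and replicate numbers from the titles) was measured on 1-colour Agilent arrays. Per the file headers, Agilent Feature Extraction 11.5.1.1 gave each spot a processed intensity, background-subtracted and detrended within the array and not normalized between arrays. The deposited files also give the mean and background intensity used with normexp, and flags of 0 or 1. The authors' deposited table holds log2 values, 1 per gene name, with the way probes were combined not given in the sources used here.

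Spots flagged as irregular (92 to 224 per array) and controls were left out, probe spots were averaged, and each array's 75th percentile was subtracted on the log2 scale. Saturated spots were absent. The 36692 probes that both arrays of a line measured well above background, with a value on all 4 arrays, were tested. The comparison, GC-2 minus GC-1, used lmFit and eBayes of limma 3.58.1 (R 4.3.3, two-sided), with Benjamini-Hochberg adjustment over these probes and a threshold of 0.05. The step was tested on simulated data. Each gene took the value of its brightest tested probe (highest mean), kept under the alternatives. Names came from the RefSeq table of GRCm38, while probe positions are those of the files (mm9). With no value from a line, a bound was taken against the lowest signal well above background. Precision is limited by the number of arrays, 4 in all.

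Members, lists and the naming rule were chosen with earlier results of these data known. Named members were a fixed set of 30 genes, up to 6 called genes per class with the largest change and up to 2 with a bound; named partners were up to 3 called genes per list and 4 fixed genes. 1 partner gene is not reported here and was left out of the list counts. Alternatives were median centring, quantile normalization, spike-in scaling, normexp (offset 50), other filters on dim probes, the authors' table, the mean of a gene's probes, the replicate block and leaving out each array.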

Additional observations from a re-analysis of the deposited data

How the results depend on the processing

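Both groups carry replicate numbers 1 and 2. The deviations of same-numbered samples correlated at 0.15 over 30316 probes, which with only a pair of numbers does not show that they pair the samples, and no label says so. With the replicate number as a block, 14 members were higher and 13 lower, with 3255 and 4542 of all genes and 7 and 8 partners. No named gene lost its call with the block, and Hsf2, Hsp90aa1 and Hspa4l gained one.

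Scaling to spike-in probes gave 5 members higher and 59 lower (median -2.13), 644 and 15156 of all genes, and 0 and 61 partners. Under it these named genes turned below 0: Hsph1 (-0.63), Dnajb1 (-0.42), Dnajc12 (-0.85), Hspb9 (-1.20), Hspa8 (-1.997), Hspa4l (-0.84), Hsf2 (-0.79), Hspa1l (-1.80), Hspa12b (-1.83), Hspb8 (-1.91), Hsf1 (-2.05), Hyou1 (-0.62), Bag2 (-0.77), Cct3 (-0.88), Mt1 (-0.90), Calr (-0.92), Hspbp1 (-1.10), Cct7 (-1.21) and Stip1 (-1.44). The scaling lowers each change by the spike-in difference. Whether the lines differ in RNA amount or the arrays in labelling was not tested.

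For the other reversals the cause was not tested: normexp turned Dnajc27 to 0.35, the authors' table turned Dnaja4 to -0.77, Serpinh1 to 0.43 and Dnajc21 to 0.74, and the mean of a gene's probes turned Serpinh1 to 0.47 and Dnajc21 to 0.038.

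Quantile normalization ended the calls of Dnaja3, Dnajb4, Dnajc21, Hspa12a and Hspb9, with the values given beside the genes. Median centring gave 21 members and 15 partners lower and a member median of -0.38. The median was -0.12 with normexp and 0.014 with the mean of probes. Without a filter on dim probes, with more probes tested, 6 members were lower, and 4 partners were higher and 5 lower. Partners higher were 12 in the authors' table and 15 by the mean of probes, which gave 5 lower. The counts of this paragraph have none of all genes beside them, so they are no result about members or partners alone.

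Leaving out 1 array at a time gave 9 to 12 members higher and 4 to 6 lower, 1941 to 2544 of all genes higher and 2704 to 3432 lower, 1 to 5 partners higher and 2 to 6 lower, and a member median of -0.15 to -0.074. The lone array is then assumed to vary like the other line, and fewer samples are tested. Of the 12 higher members, 3 were called higher under all 13 alternatives (Hspa1b, Dnajc15 and Hspb2) and 11 stayed above 0 under all but the spike-in scaling, with Dnaja4 the exception. Of the 12 lower members, Dnajc17 was called lower under all 13, and 10 stayed below 0. For members with 1 tested probe the mean of a gene's probes repeats the main change, so it is no separate check for them. Hspa1b, Dnajc15, Hspb2 and Dnajc17 are such members.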
